A study of Homo sapiens with 8 samples.

Results

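The genes described here encode components of the Ras-Raf-MEK-ERK cascade. The list held 7 genes, HRAS, NRAS, BRAF, MAP2K1, MAP2K2, MAPK3 and RASA1, named for their place in the cascade; the rule uses no measured value, but the list was drawn up with earlier results of these data known. A probe set counted as a member when its only annotated gene symbol was on the list. This gave 6 of the 22215 non-control probe sets and 4 of the 11963 genes named: HRAS, MAP2K1 and MAPK3 with 1 probe set each and MAP2K2 with 3. NRAS, BRAF and RASA1 were not analysed here.

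Transcripts were measured on 8 Affymetrix human GeneChip arrays in a study of CD24, a small glycosylated surface protein anchored in the membrane by a lipid, as a target in colorectal and pancreatic cancer. Both cell lines are established human cancer lines, HT29 of the colon and rectum and Colo357 of the pancreas. Each line was measured untreated and after 72 h with SWA11, a monoclonal antibody against CD24, at a dilution of 1 to 40, with 1 array per condition. The other 4 arrays held clones derived from HT29: 1 with a vector expressing a short hairpin RNA (shRNA) against GFP, 1 with a vector expressing a CD24-directed shRNA, and 2 clones, called G and E here after their labels, with 2 such vectors. Each clone is a line of its own measured on 1 array, so a difference between groups of clones also holds differences between single clones. The labels do not say that any arrays came from repeated cultures, and the p-values below measure the spread between these arrays only.

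In this cascade, growth factor receptors recruit exchange factors that load Ras proteins with GTP, and GTP-bound Ras brings Raf kinases to the membrane. Raf phosphorylates the kinases MEK1 and MEK2, which phosphorylate ERK1 and ERK2, and active ERK phosphorylates cytoplasmic and nuclear proteins and raises the transcription of early response genes and of its own inhibitors. GTPase-activating proteins return Ras to its GDP-bound state. The activity of these proteins is set largely by nucleotide loading and phosphorylation, which an array does not measure, so the values here are transcript levels and not pathway activity. HRAS encodes a Ras GTPase, MAP2K1 and MAP2K2 encode MEK1 and MEK2, and MAPK3 encodes ERK1.

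The results turn on HRAS, MAP2K2 and MAPK3, the genes with the widest ranges over the arrays, and their promoters are shown to let the start regions be compared. The sequences are the 250 bases before the annotated start in RefSeq on GRCh38.p14, 5′ to 3′ on the gene's strand, and capitals mark the GC box letters GGGCGG or, on the other strand, CCGCCC. The HRAS promoter is at chr11:535577-535826 on the minus strand, that of MAP2K2 at chr19:4124123-4124372 on the minus strand and that of MAPK3 at chr16:30123221-30123470 on the minus strand.
HRAS: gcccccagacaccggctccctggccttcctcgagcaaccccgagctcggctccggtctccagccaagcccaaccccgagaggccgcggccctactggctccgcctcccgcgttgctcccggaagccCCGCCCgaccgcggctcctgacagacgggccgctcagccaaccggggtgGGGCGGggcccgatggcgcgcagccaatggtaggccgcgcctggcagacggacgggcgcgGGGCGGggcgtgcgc
MAP2K2: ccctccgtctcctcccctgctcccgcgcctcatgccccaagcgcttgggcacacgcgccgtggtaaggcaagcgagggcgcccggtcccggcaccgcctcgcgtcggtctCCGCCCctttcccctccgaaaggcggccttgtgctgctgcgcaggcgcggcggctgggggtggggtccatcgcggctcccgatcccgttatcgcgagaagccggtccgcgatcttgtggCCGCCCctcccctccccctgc
MAPK3: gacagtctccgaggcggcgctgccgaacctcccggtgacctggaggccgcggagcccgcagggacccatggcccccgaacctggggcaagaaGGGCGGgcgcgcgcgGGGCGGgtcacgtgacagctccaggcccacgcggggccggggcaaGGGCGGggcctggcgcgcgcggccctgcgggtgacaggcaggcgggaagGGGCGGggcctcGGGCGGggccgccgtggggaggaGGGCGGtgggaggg

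All 4 genes matched the promoter table. The GC box letters occur 3 times before HRAS, 3 times before MAP2K1, at chr15:66386662-66386911 on the plus strand, 2 times before MAP2K2 and 6 times before MAPK3. MAP2K1 and MAP2K2 each have another annotated start whose window holds 0. Among 35116 RefSeq promoter windows of the same length, 42.6% hold the letters at least once, and a match describes the sequence only. The HRAS window is 77.2% G and C and the MAP2K2 window 74.0%.

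The shRNA target itself was lower in the clones made against it. The mean log2 level over the 6 CD24 probe sets, with 10 added to each intensity before log2 here and throughout, was 8.40 in the 1-vector clone, 7.78 in clone G and 8.39 in clone E. Untreated HT29 was at 11.25 and the GFP shRNA clone at 11.56, and both lay above all 3. The mean was 9.65 in untreated Colo357. Clone G stood apart in array controls: its ratio of 3′ to 5′ actin signal was 1.77, against 1.06 to 1.17 on the other arrays. The gap was smaller in the 3′ to 5′ GAPDH ratio, 1.15 against 0.85 to 1.04. Its 18S ribosomal RNA 3′ signal was 434.8, against 14.7 to 48.0. Counts of markers above the array median did not separate the lines: of 9 colorectal markers, 4 were above it in untreated HT29 and 3 in untreated Colo357. Of 8 pancreatic duct markers, 7 and 6 were. Single markers did differ: the colorectal KRT20 read 1117.1 in untreated HT29 and 6.7 in untreated Colo357, and the duct marker KRT7 38.8 and 5468.1. Others went the other way, among them the colorectal VIL1 at 439.3 and 1123.5 and the duct marker CFTR at 167.2 and 1.5. The intestinal transcription factor CDX2 had an intensity of 3.2 in HT29. The epithelial adhesion gene CDH1 read 2172.8 in HT29 and 1161.5 in Colo357 but 1.4 to 15.4 in the 4 clones, the GFP clone included. In RNA from whole cultures, fewer cells of a kind and less RNA per cell cannot be told apart.

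HRAS was high on every array except that of the GFP shRNA clone, where it was lowest. Its intensity was 1333.5 in untreated HT29, 995.3 in antibody-treated HT29, 1018.3 in untreated Colo357 and 1149.3 in antibody-treated Colo357. In the clones it was 377.3 with the GFP shRNA, 738.5 with 1 CD24 vector, 1391.5 in clone G and 826.5 in clone E. The highest array was 3.69 times the lowest, and both ends of that range were HT29 clones.

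MAP2K1, which encodes MEK1, had the narrowest range of the 4 genes, with the highest array 1.71 times the lowest. Its intensity was 862.7 in untreated HT29, 857.6 in antibody-treated HT29, 627.8 in untreated Colo357 and 1072.9 in antibody-treated Colo357. The clones read 813.4 with the GFP shRNA, 776.5 with 1 CD24 vector, 654.2 in clone G and 1063.9 in clone E. The lowest and the highest arrays were thus the untreated and the treated cells of Colo357.

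MAP2K2, which encodes MEK2, had its 3 highest values in the 3 CD24 shRNA clones. By probe set 202424_at its intensity was 830.0 in untreated HT29, 638.3 in antibody-treated HT29, 1018.1 in untreated Colo357 and 638.1 in antibody-treated Colo357. It was 916.4 in the GFP shRNA clone, 1800.0 in the 1-vector clone, 2473.3 in clone G and 1134.6 in clone E. The lowest values were those of the antibody-treated arrays of both lines, and the whole range was 3.88-fold.

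The other MAP2K2 probe sets did not follow the same order in full. Probe set 213490_s_at, whose suffix marks probes shared between transcripts, read 152.1 in untreated HT29, 186.0 in antibody-treated HT29, 259.7 in untreated Colo357 and 181.7 in antibody-treated Colo357. It read 259.5 in the GFP shRNA clone, 349.5 in the 1-vector clone, 247.4 in clone G and 227.3 in clone E, so clones G and E lay below the GFP clone. Over the 8 arrays, its log2 values and those of 202424_at had a Pearson r of 0.67, as a description of arrays that share the same RNA. Probe set 213487_at lay between 1.5 and 5.7 on all arrays, failed the filter on low values in every comparison and was not tested.

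MAPK3, which encodes ERK1, was highest in antibody-treated HT29 and lowest in the untreated parent line. Its intensity was 140.9 in untreated HT29, 478.2 in antibody-treated HT29, 266.6 in untreated Colo357 and 218.8 in antibody-treated Colo357. The clones read 230.2 with the GFP shRNA, 232.0 with 1 CD24 vector, 295.6 in clone G and 168.3 in clone E. This probe set, 212046_x_at, carries the suffix for probes that may match unrelated transcripts, so signal from other genes in its values cannot be told apart.

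**Figure D1:**
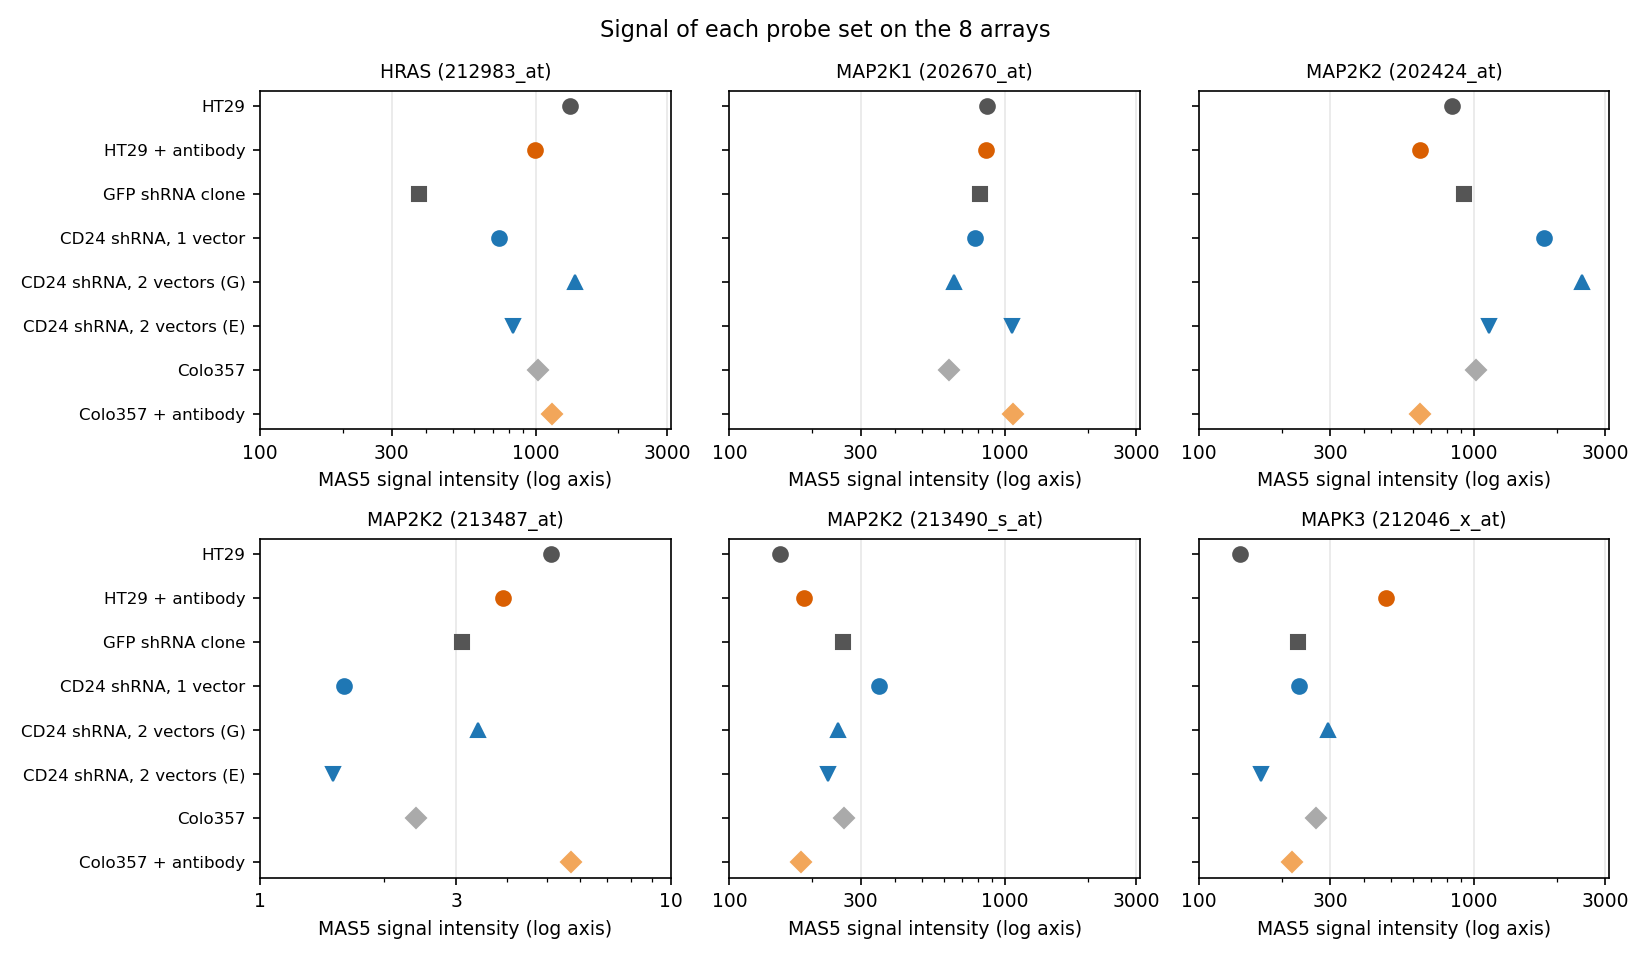
MAS5 signal intensity (horizontal log axis, no unit) of the 6 probe sets of HRAS, MAP2K1, MAP2K2 and MAPK3 on each of the 8 arrays, 1 point per array and no error bars. HRAS is lowest in the GFP shRNA clone at 377.3, MAP2K2 by 202424_at is highest in the CD24 shRNA clones at 1134.6 to 2473.3, and MAPK3 is highest in antibody-treated HT29 at 478.2.

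The first comparison asked whether cells with lowered CD24 differ in these transcripts, and set the 3 CD24 shRNA clones against untreated HT29 and the GFP shRNA clone. MAP2K2 by 202424_at was the only member probe set whose clones all lay above both controls, and no member passed the test. Probe sets entered the test when their mean lay above the median of all probe sets, which kept 11107 in all and 5 of the 6 members. In limma's fit, 0 of the 5 had an adjusted p below 0.05, where 0% of all tested probe sets did, and 0 of the 5 had an unadjusted p below 0.05, where 19.1% did. Groups did not overlap for 1 of the 5, the clones being higher, against 17.7% of all tested probe sets, and 0 of the 5 had all clones lower, against 22%. The median log2 difference was 0.41 over the 5 members tested and -0.05 over all tested probe sets.

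For MAP2K2 by 202424_at the mean log2 level was 10.75 ± 0.56 (SD, n = 3) in the CD24 shRNA clones and 9.78 ± 0.10 (SD, n = 2) in the controls. The difference was 0.97 ± 0.43 (SE, 95% interval -0.03 to 1.97), a 1.96-fold ratio, with an unadjusted p of 0.0554 and an adjusted p of 0.271 by limma. The size was exceeded by 25.7% of tested probe sets, so it was not rare on these arrays. It was present against each control, at 1.04 against untreated HT29 and 0.90 against the GFP clone as means of the 3 clones. Clone E was nearest to the controls, 0.45 above HT29 and 0.31 above the GFP clone, and clone G, whose actin ratio was 1.77, was farthest at 1.56 and 1.42. Without clone G the difference was 0.71, and without clone E it was 1.27, with adjusted p of 0.619 and 0.0824 by limma. The gene's probe set 213490_s_at differed by 0.42 ± 0.40 (SE, interval -0.52 to 1.37, limma adjusted p = 0.562). That value was 0.79 against HT29 but 0.06 against the GFP clone.

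For HRAS the clones and controls overlapped, and the controls themselves were far apart. The mean log2 level was 9.90 ± 0.48 (SD, n = 3) in the CD24 shRNA clones and 9.49 ± 1.27 (SD, n = 2) in the controls. The difference of 0.41 ± 0.59 (SE, interval -0.96 to 1.78) had a limma adjusted p of 0.703. It took opposite signs against the 2 controls, -0.49 against untreated HT29 and 1.31 against the GFP clone, so its direction depended on the control.

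MAP2K1 and MAPK3 differed by less than the spread between arrays. MAP2K1 had mean log2 levels of 9.69 ± 0.35 (SD, n = 3) in the CD24 shRNA clones and 9.73 ± 0.06 (SD, n = 2) in the controls, a difference of -0.04 ± 0.37 (SE, interval -0.91 to 0.83). MAPK3 had 7.88 ± 0.39 (SD, n = 3) and 7.57 ± 0.47 (SD, n = 2), a difference of 0.31 ± 0.41 (SE, interval -0.65 to 1.27). The limma adjusted p was 0.960 for MAP2K1 and 0.677 for MAPK3. The MAPK3 difference was 0.65 against untreated HT29 and -0.024 against the GFP clone. These intervals are wide enough to hold changes near 2-fold in either direction for HRAS and in at least 1 direction for MAPK3, so the result does not show equal levels.

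**Figure D2:**
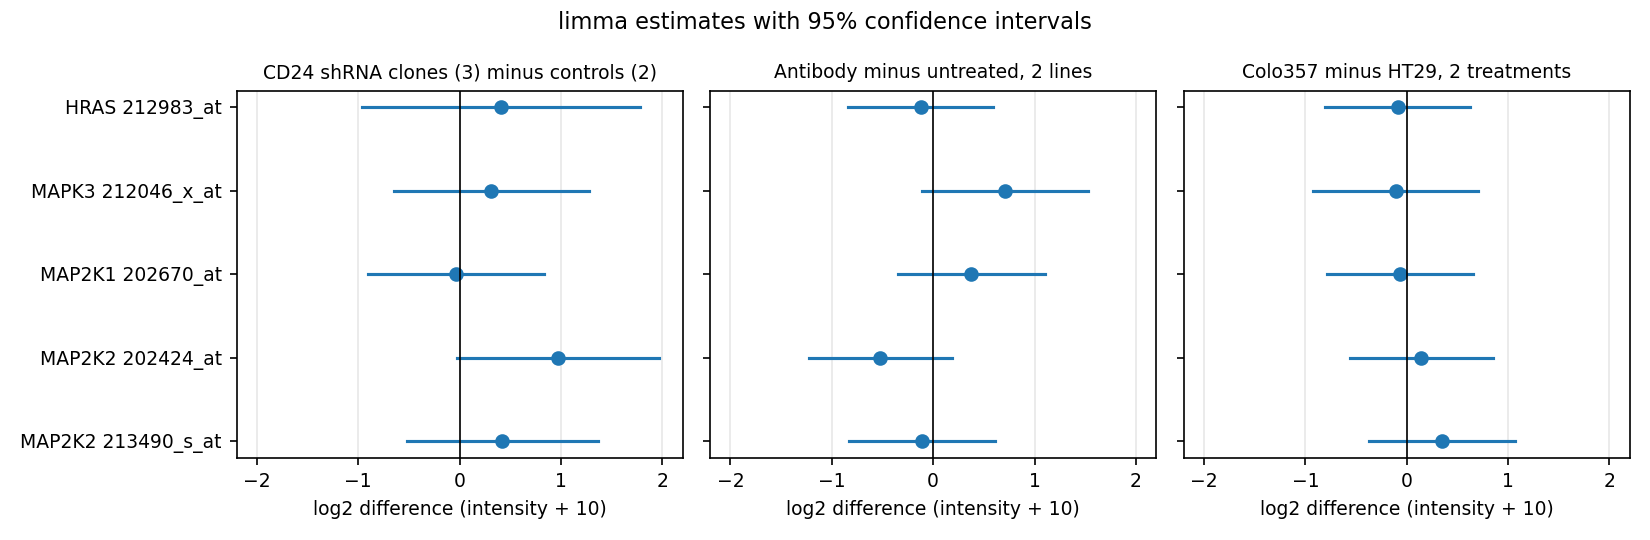
Log2 differences (horizontal axis, log2 of intensity plus 10) of the 5 tested member probe sets in the limma fits, 1 panel per comparison, with points for the estimates and bars for 95% confidence intervals. Every interval includes 0; the nearest to leaving it is MAP2K2 by 202424_at in the CD24 shRNA clones, at -0.03 to 1.97.

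The antibody comparison asked whether binding CD24 from outside moves these transcripts, and used the 4 arrays of treated and untreated cells in 1 fit, with a term for the line. No member passed the test, and MAP2K2 by 202424_at was the only tested member probe set whose difference had the same sign in both lines. Of the 5 tested, 0 had a limma adjusted p below 0.05, against 10.3% of all 11107 tested probe sets (3.47% higher, 6.82% lower), and 0 had an unadjusted p below 0.05, against 25.7%. Lower in both lines was 1 of the 5, against 37.9% of all tested probe sets, and higher in both was 0 of the 5, against 30.5%. With 1 residual degree of freedom, limma's error rests mostly on the spread shared over all probe sets, at 24.2 degrees of freedom in all. That residual is the disagreement of the antibody difference between the lines, not a spread between repeated arrays.

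The antibody difference in MAP2K2 by 202424_at was -0.37 on the log2 scale in HT29 and -0.67 in Colo357. The fitted difference was -0.52 ± 0.34 (SE, interval -1.23 to 0.19), with an adjusted p of 0.356 by limma. Its other tested probe set, 213490_s_at, differed by 0.27 in HT29 and -0.49 in Colo357, and its fitted difference was -0.11 ± 0.35 (SE). The probe sets of this gene thus took the same sign in Colo357 and opposite signs in HT29.

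MAPK3 gave the largest fitted value among the members, 0.71 ± 0.40 (SE, interval -0.11 to 1.53), with a limma adjusted p of 0.264. It came from 1 line: the log2 difference was 1.69 in HT29, a 3.24-fold ratio, and -0.27 in Colo357. In HT29, where 1 array was set against 1 and no test is possible, MAPK3 was the 1 of 5 members at 2-fold or more, against 12.3% of all probe sets above the filter. Only 1.73% of those probe sets had a larger difference in that line. In Colo357, 0 of the 5 reached 2-fold, against 23.5% of all. The difference between the lines was not tested.

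HRAS and MAP2K1 stayed within 2-fold of the untreated cells in both lines. The antibody difference in HRAS was -0.42 on the log2 scale in HT29 and 0.17 in Colo357, fitted at -0.12 ± 0.35 (SE, interval -0.84 to 0.59). That in MAP2K1 was -0.01 in HT29 and 0.76 in Colo357, fitted at 0.38 ± 0.35 (SE, interval -0.34 to 1.10). The limma adjusted p was 0.865 for HRAS and 0.534 for MAP2K1.

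**Figure D3:**
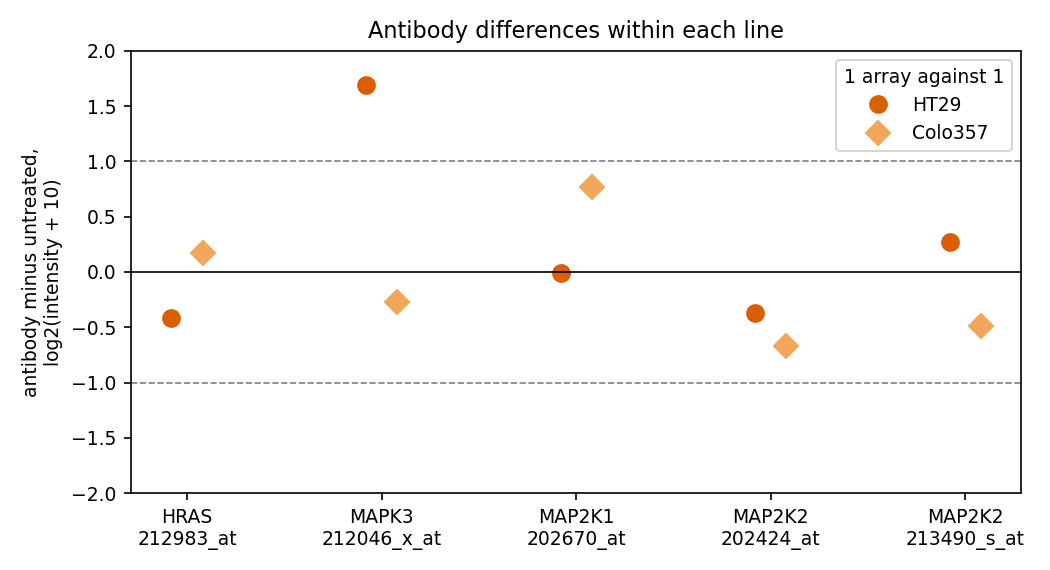
Antibody-treated minus untreated log2 difference (vertical axis, log2 of intensity plus 10) of the 5 member probe sets above the filter, in HT29 (circles) and Colo357 (diamonds), each 1 array against 1 with no error; dashed lines mark 2-fold. MAPK3 in HT29 is the only point past 2-fold, at 1.69, and MAP2K2 by 202424_at is the only probe set clearly below 0 in both lines, at -0.37 and -0.67.

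No member passed the test between the lines. With treatment as a block on the same 4 arrays, Colo357 minus HT29 was -0.09 ± 0.35 for HRAS, -0.07 ± 0.35 for MAP2K1, 0.15 ± 0.34 for MAP2K2 by 202424_at, 0.35 ± 0.35 for 213490_s_at and -0.11 ± 0.40 for MAPK3 (log2, SE). In limma's fit, 0 of the 5 had an adjusted p below 0.05, against 23.1% of all tested probe sets (12.3% higher, 10.8% lower), and 0 an unadjusted one below 0.05, against 34.2%. The intervals ran from -0.92 to 1.07 over the 5, so differences near 2-fold were not excluded for some of them.

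HRAS gave the widest gap between the controls. The GFP shRNA clone minus untreated HT29 was -1.79 on the log2 scale, a 3.47-fold lower level, and 5.35% of probe sets above the filter differed by more. HRAS was the 1 of 5 member probe sets at 2-fold or more in this pair, against 20.1% of all. MAP2K2 by 213490_s_at was 0.73 higher in the GFP clone and MAPK3 0.67 higher, while MAP2K2 by 202424_at differed by 0.14 and MAP2K1 by -0.08. With 1 array on each side, the difference has no replicate check.

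No member reached 2-fold between CD24 shRNA clones with 2 vectors and the clone with 1. The mean of clones G and E minus the 1-vector clone was 0.53 on the log2 scale for HRAS, 0.10 for MAP2K1, -0.10 for MAP2K2 by 202424_at, -0.54 for 213490_s_at and -0.05 for MAPK3. Of the 5 member probe sets, 0 met the rule of a 2-fold difference with the 1-vector clone outside both others, against 9.07% of all. For MAP2K2 by 202424_at the value was -0.66 with clone E alone and 0.46 with clone G alone, so the clones with 2 vectors lay on opposite sides of the clone with 1.

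The other cascade genes were taken from lists of Ras and Raf relatives, exchange factors, receptor adaptors, GTPase-activating proteins, scaffolds and modulators, lipid-processing enzymes of Ras and ERK substrates. Outside the members and the ERK output genes these held 56 genes, of which 44 had a probe set here, and each was represented by its brightest. Of these, 31 passed the filter in the clone comparison, and their median log2 difference was -0.04, against -0.05 over all probe sets. By limma, 0 of the 31 had an adjusted p below 0.05, as for all probe sets. At an unadjusted p below 0.05, 1 was higher and 5 were lower, against 5.22% higher and 13.8% lower among all tested probe sets.

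Among the 5 lower genes were LAMTOR3 and PTPN11. LAMTOR3, a late endosomal scaffold that binds MEK1 and ERK1, had intensities of 398.2 in untreated HT29 and 410.3 with the GFP shRNA. It was at 70.6 with 1 CD24 vector, 36.9 in clone G and 169.7 in clone E. PTPN11, the phosphatase SHP2 that helps receptors activate Ras, read 799.1 and 784.1 in those controls, against 172.3, 166.8 and 663.2 in the CD24 shRNA clones in the same order. In both genes clone E was nearest to the controls and the groups did not overlap. Among all tested probe sets, 22% likewise had every CD24 shRNA clone below both controls, so this separation was not rare. The log2 difference was -2.24 ± 0.57 (SE) for LAMTOR3 and -1.52 ± 0.62 (SE) for PTPN11, with limma adjusted p of 0.236 and 0.253.

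The remaining 4 were IQGAP1, a scaffold of Raf, MEK and ERK, SHOC2, which helps a phosphatase activate Raf, YWHAB, a 14-3-3 protein that binds Raf, and GAB2, a docking adaptor. Their log2 differences were -1.53 ± 0.65, -1.39 ± 0.58, -0.91 ± 0.38 and 1.48 ± 0.55 (SE), and their limma adjusted p lay between 0.238 and 0.261. YWHAB had 3 probe sets above the filter, which ran from -0.91 to -0.36. For IQGAP1 the groups overlapped: clone E, at 676.8, lay above untreated HT29, at 583.5, and the GFP clone was at 1280.1. The controls were far apart for GAB2, at 28.0 in untreated HT29 and 105.6 in the GFP clone. Its difference ran from 0.68 to 2.28 over the alternative fits described below. Without clone E, PTPN11, LAMTOR3 and SHOC2 passed, at limma adjusted p of 0.0306, 0.0306 and 0.0391, when 1051 of all tested probe sets did. Clone G, with the high actin ratio, had the lowest LAMTOR3 and PTPN11 values; the part of RNA integrity in these differences was not tested.

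With the antibody, 28 of these other genes were tested over both lines; 2 rose and 1 fell, against 3.47% higher and 6.82% lower among all tested probe sets, and the median log2 difference was -0.11, against -0.05 over all probe sets. RRAS, a Ras-related GTPase, went from 378.4 to 1190.5 in HT29 and from 480.6 to 1128.4 in Colo357. It rose by 1.42 ± 0.34 (SE) on the log2 scale, with a limma adjusted p of 0.0108. PEA15, which binds ERK and holds it in the cytoplasm, went from 512.3 to 771.5 in HT29 and from 499.1 to 1710.1 in Colo357, a rise of 1.17 ± 0.36 (SE, limma adjusted p = 0.0396). RPS6KA3, the ERK-activated kinase RSK2, went from 189.9 to 78.1 in HT29 and from 171.0 to 77.8 in Colo357, and fell by 1.11 ± 0.34 (SE, limma adjusted p = 0.0383). All 3 moved the same way in both lines. Quantile normalization, no filter or a fit on all 8 arrays left 0 of these 3 calls.

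Between the lines, 3 of the 28 were higher in Colo357 and 2 lower, against 12.3% higher and 10.8% lower among all tested probe sets. GAB2 was 1.85 ± 0.34 (SE) higher, LZTR1, an adaptor for the degradation of Ras proteins, 1.34 ± 0.35 higher and FNTA, a subunit of the enzymes that attach lipids to Ras, 0.99 ± 0.34 higher. RASA3, a GTPase-activating protein, differed by -1.04 ± 0.34 and LAMTOR3 by -1.07 ± 0.34. GAB2 read 28.0 and 37.0 in untreated and treated HT29, below those arrays' medians of 44.0 and 41.0. RASA3 read 34.6 in treated Colo357, below that array's median of 50.3, and LZTR1 35.6 in treated HT29, below 41.0. For these genes the filter drew on the line where they were higher, so their tests are not independent of it. The limma adjusted p lay between 0.000215 and 0.0375 for the 5. A fit on all 8 arrays left 0 of these calls, no filter 2 and quantile normalization 3; over the alternatives, the highest limma adjusted p was 0.0848 for GAB2 and between 0.214 and 0.498 for the others.

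The ERK output genes, transcripts known to rise when ERK is active, are set beside the members for comparison. This list was chosen with earlier results of these data known, so its counts describe these arrays and are not independent support. In the clone comparison 17 passed the filter, with a median log2 difference of 0.53 and 0 at a limma adjusted p below 0.05. Of these, 12 were higher and 5 lower, from SPRY1 at -1.69 to DUSP5 at 2.78. With the antibody 7 of 17 rose and 0 fell, against 3.47% higher and 6.82% lower among all tested probe sets, led by DUSP5, an ERK phosphatase, at 2.50 and HBEGF, an EGF receptor ligand, at 2.48 (log2; limma adjusted p of 0.000418 and 0.00143). These 2 calls were lost with quantile normalization, no filter or a fit on all 8 arrays, with a highest limma adjusted p of 0.666 for each. PHLDA1, another of the 7, counted by its brightest probe set, had 5 that ran from -0.63 to 2.14 with the antibody. By line, 10 of 16 output genes were 2-fold or more higher in Colo357 and 0 lower, against 23.5% of all probe sets in either direction. In HT29, 2 of 17 were higher, DUSP5 and HBEGF, and 2 lower, SPRY2 at -1.23 and MYC at -1.28, against 12.3%; the difference between the lines was not tested. DUSP5 read 28.2 in untreated HT29, below that array's median of 44.0. In untreated Colo357, EGR1 read 44.6 and SPRY4 42.1, below that array's median of 56.5. Such genes passed the filter of their pair through the treated array, where they were higher, so these counts are not independent of it. On the same 4 arrays, none of the 5 member probe sets passed the test.

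**Figure D4:**
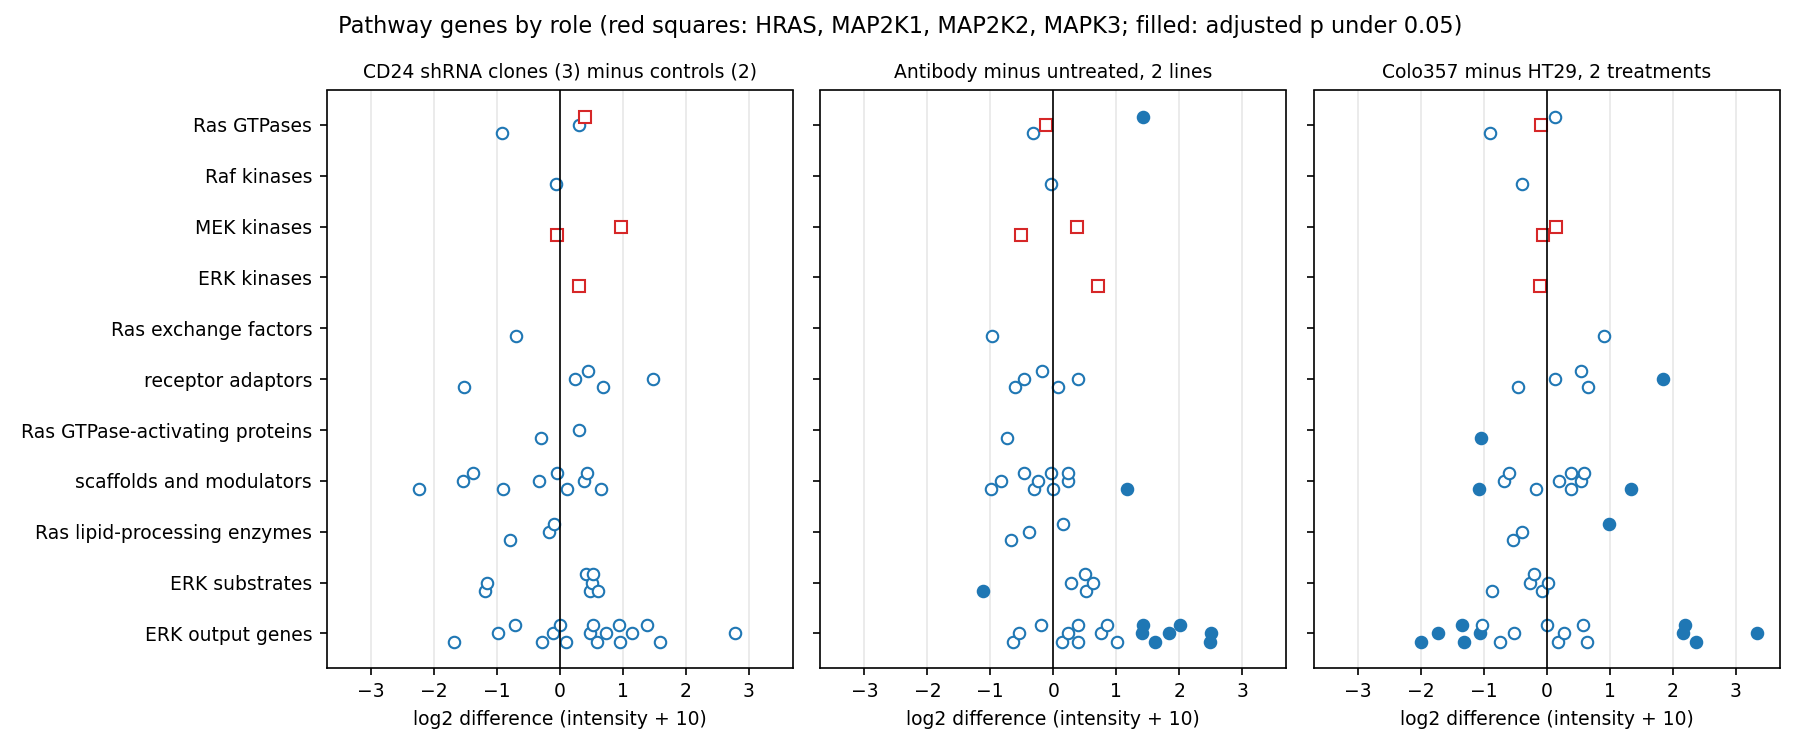
Log2 differences (log2 of intensity plus 10) of the cascade's genes on the horizontal axes, by list, in the clone, antibody and line comparisons, 1 point per gene by its brightest probe set. Red squares are HRAS, MAP2K1, MAP2K2 and MAPK3, which lie between -0.52 and 0.97 and are all open; filled points have a limma adjusted p below 0.05. In the clone panel LAMTOR3 reaches -2.24 and DUSP5 2.78, both open.

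The transcripts most like each member over the 8 arrays were ranked by the Pearson r of log2 values, as a description of arrays that share lines and clones. For HRAS these were PA2G4 (r = 0.99), MCM7 (1.00), a subunit of the replicative helicase, and PKMYT1 (0.96), a kinase that restrains CDK1, and 14 of 9938 probe sets exceeded 0.9. MAP2K1 was most like DUSP6, an ERK phosphatase, at 0.91 and 0.88 by separate probe sets, followed by SRSF7 at 0.88, with 1 over 0.9. MAP2K2 by 202424_at was most like ARAP1, SMARCC2 and FPGS, all at 0.96, with 70 of 9937 over 0.9. For MAPK3, FKBP9 was at 0.92, KYAT1 and ADGRL1 at 0.87. Members of different genes had r between -0.55 and 0.15 with each other, so no pattern over the arrays was common to the 4 genes.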

How the data were processed

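The deposited values are linear intensities, 1 per probe set, made with MAS5, per the submitters' processing notes. No source used here gives its version or its background settings, and no detection calls were used. MAS5 weighs perfect-match against mismatch probes, which makes dim values noisy. A mean trimmed by 2% at either end came to 250.1 on all 8 arrays, which were therefore not rescaled. The deposited table held 22277 probe sets, 62 of them controls. The platform annotation named 1 gene for 19064 probe sets, several for 1043 and no gene for 2108; RefSeq for GRCh38.p14 updated 19052 of the single names by Entrez ID. Those with several symbols got no name here.

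The authors' intensities were converted to log2(intensity + 10), which understates differences of dim genes; 10 is about the 25th percentile (10.1). Probe sets were kept above the median level of a comparison's arrays, tested with limma 3.58.1 in R 4.3.3 (lmFit and eBayes, two-sided) and adjusted by Benjamini-Hochberg over all 11107 tested. The clone fit had 3 residual degrees of freedom. Comparisons of 1 array with 1 were described by log2 differences and 2-fold counts. The number of arrays limits the precision. The fit was run on simulated data with independent noise of equal spread. Those data held no differences between single clones and no line-specific antibody response, so they do not show the fit's error on these arrays. Every member probe set was named; other cascade genes were named when past an adjusted p of 0.05 or, otherwise, among the largest differences of their list, up to 4 per list and comparison; the 3 most like transcripts were named per gene. The genes and lists were chosen with earlier results of these data known.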

Additional observations from a re-analysis of the deposited data

How the results depend on the processing

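No paired analysis was possible by replicate number because the labels give the groups compared no shared numbers; the antibody arrays are paired by line in the fit itself. The alternatives were an added constant of 1 or 50, no filter, quantile normalization, no _x_at probe sets, an intensity trend in eBayes, a fit on all 8 arrays and each clone-comparison array left out. Over all of these that could be run, 0 member probe sets had a limma adjusted p below 0.05 in the 3 tested comparisons. Of the members' single values, 211 counted as unchanged, 2 without a test moved by more than the clones' spread and 4 with a test reversed. A tested value counted as unchanged when its direction and call held. An untested one did when it moved by less than the clones' spread, so small untested values could change sign. With 2 vectors against 1, MAP2K1 ran from -0.24 to 0.45 and MAPK3 from -0.44 to 0.34. The 4 reversals all came with an array of the clone comparison left out. Without untreated HT29, MAP2K1 read 0.0024 and MAPK3 -0.024. Without the GFP clone, HRAS read -0.49, and without clone G, MAP2K1 read 0.12. With an array left out, HRAS ran from -0.49 to 1.31, MAP2K1 from -0.23 to 0.12 and MAPK3 from -0.024 to 0.65. In that comparison 1 member probe set had an unadjusted p below 0.05 by limma with a constant of 50, no filter, the trend, or without clone E or untreated HT29. Quantile normalization moved the median of all probe sets from -0.05 to 0.12 in the clone comparison and from 0.10 to -0.05 for the GFP clone against HT29. In the clone comparison the calls over all probe sets, 0 by default, were 3 with a constant of 50, 5 with the trend and 0 to 1051 with an array left out (1051 without clone E, 22 without the GFP clone); those among other cascade genes were 0 to 3. With the antibody, the 3 other cascade genes became 1 with a constant of 1 or 50, 1 without _x_at probe sets, and 0 with no filter, quantile normalization or all 8 arrays; the 1142 calls over all probe sets became 521 with a constant of 50, 24 with quantile normalization, and 0 with no filter or all 8 arrays. Between the lines, the 5 other cascade genes became 2 with no filter, 3 with quantile normalization and 0 with all 8 arrays, and the 2564 calls became 572 with all 8 arrays. Leaving out an array of the 4-array fits leaves no residual degree of freedom and was not run. Signals under the added 10, as for 213487_at, carry no usable difference.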

Other observations

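In comparisons without a test, single cascade genes outside the members reached 2-fold. In the GFP shRNA clone against untreated HT29, GAB2 was 1.61, RPS6KA5, an ERK-activated chromatin kinase, 1.54, LZTR1 1.40, RPS6KA3 1.17 and IQGAP1 1.12 higher on the log2 scale, and RASA3 differed by -1.20, where 20.1% of all probe sets above the filter reached 2-fold. GAB2 in untreated HT29, at 28.0, lay below that array's median of 44.0, and RASA3 in the GFP clone, at 56.4, below 63.1. In the CD24 shRNA clones with 2 vectors against the clone with 1, RRAS differed by -1.07 and RASA3 by -1.06, where 9.07% of all met the 2-fold rule. The RASA3 value rested mainly on clone G, at 28.1, below that array's median of 32.4. Clone E read 98.1 and the 1-vector clone 123.5. In Colo357 with the antibody, PEA15 differed by 1.76, RRAS by 1.21, RPS6KA3 by -1.04, SOS1, a Ras exchange factor, by -1.33 and IQGAP1 by -1.25, where 23.5% of all reached 2-fold. In HT29 with the antibody, RRAS differed by 1.63 and RPS6KA3 by -1.18, where 12.3% did.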
